A study of Mus musculus with 8 samples.

Results

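Major histocompatibility complex (MHC) class I presentation was examined in the hippocampus of young and very old mice through 9 genes: H2-K1, H2-D1, B2m, Tap1, Tap2, Tapbp, Psmb8, Psmb9 and Psmb10. Every non-control probe whose accession mapped to 1 of these genes was taken, whatever it measured, which gave 10 of the 39429 probes of the array. They occupied 28 of 43020 spots, because the probe of Tap1 and 1 of the 2 probes of H2-K1 were each printed 10 times.

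The samples were RNA from hand dissected whole hippocampus of wild type C57BL/6J mice that had lived untreated in their home cages. One group was 3 months old (3M, n = 4) and the other 29 months old (29M, n = 4), and each sample was labelled with Cy3 and hybridised to 1 array. The labels number the samples but tie none to a particular animal, so the p-values below measure the spread between these samples, part of which may be technical. In RNA from whole tissue, fewer cells of a type and less RNA per cell cannot be told apart.

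Class I molecules display peptides from the inside of a cell on its surface, where CD8+ T cells and natural killer cells read them. The immunoproteasome cuts proteins into fitting peptides, a transporter carries these into the endoplasmic reticulum, and tapasin holds the empty class I molecule next to the transporter until a peptide is bound. In the healthy brain these genes are active mainly in microglia and vessels and at a lower level in neurons, and interferons raise nearly all of them.

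Replicate 1 of 3M stood apart from the other 3M arrays in these genes and has to be known before the values are read. It was the highest 3M array for all 9 genes, while the same array was the highest for 35.1% of all 19742 named genes tested. It was also the only array that the extraction software did not mark as in range. Its share of spots well above background was the lowest (76.2%, against 78.9% to 85.0% in the others). The array lay on slide 1 together with replicates 3 and 4 of 29M, which had the next lowest shares (80.6% and 78.9%). No other 3M array was on that slide. The changes of the genes and lists named below are therefore given with and without this array, and the part of array quality, slide or animal in its values was not tested. All 10 probes were well above background on all 8 arrays, no spot was saturated, and the number of arrays limits the precision throughout.

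The promoters of the class I heavy chains and of their light chain are shown here because these 3 genes share a sequence arrangement that the other members with an entry do not have in this window. The stretches are from RefSeq (GRCm38.p6) and lie upstream of the annotated start. Windows of 300 bases (250 before and 50 after the start site) were given for 8 of the 9 genes, not for Tap2, and H2-K1 had a pair of them. The motifs were chosen after the sequences had been read, and both strands were searched. Capitals mark TGACG and ATTGG where exactly 20 bases lie between them, an arrangement known from class I and class II promoters as the X2 and Y boxes. Capitals also mark the NF-kB consensus, whose matches overlap in the run of 11 bases in H2-K1 and H2-D1, and 2 forms of the interferon-stimulated response element, GAAANNGAAA in B2m and GAAGTGAAA on the reverse strand in H2-K1 and H2-D1. The H2-K1 stretch is chr17:34000354-34000463 on the minus strand, the H2-D1 stretch chr17:35262918-35263027 on the plus strand, and the B2m stretch chr2:122147543-122147643 on the plus strand.
H2-K1: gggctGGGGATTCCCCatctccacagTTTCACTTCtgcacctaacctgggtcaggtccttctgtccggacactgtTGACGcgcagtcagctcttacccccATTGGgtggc
H2-D1: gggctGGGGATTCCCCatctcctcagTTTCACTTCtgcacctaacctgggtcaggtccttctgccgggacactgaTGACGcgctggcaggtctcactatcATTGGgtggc
B2m: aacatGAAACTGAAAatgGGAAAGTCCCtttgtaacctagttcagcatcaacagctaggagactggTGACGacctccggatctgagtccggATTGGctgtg

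The stretches of H2-K1 and H2-D1 had the same base at 99 of 110 positions (90%). The pair of TGACG and ATTGG at this spacing was found in 31 of 32851 windows of all genes (0.0944%), which belonged to 27 genes. H2-M3, another class I gene, was among them. GAAGTGAAA was present in 0.505% of all windows, GAAANNGAAA in 3.44% and the NF-kB consensus in 8.46%. In the windows of Tap1, Psmb9, Psmb8, Psmb10 and Tapbp none of these 4 patterns was found.

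Psmb9, Tap1, Psmb8 and Tap2 lie side by side in this order on chromosome 17 of that assembly. Tap1 and Psmb9 are read away from each other, and their windows overlapped by 275 bases. The 225 bases between their start sites, chr17:34187331-34187555 on the strand of Tap1, are shown because 1 short stretch serves both genes. Capitals mark TGACG (20.8% of all windows) and the reverse strand of ATTGG (37.4%), which here are not at the spacing above.
Tap1 and Psmb9: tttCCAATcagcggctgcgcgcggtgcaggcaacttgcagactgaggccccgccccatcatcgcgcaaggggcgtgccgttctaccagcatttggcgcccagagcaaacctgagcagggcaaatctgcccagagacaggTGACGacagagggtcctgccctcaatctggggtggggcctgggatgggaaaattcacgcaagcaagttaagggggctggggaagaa

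All 9 genes had a higher mean in 29M than in 3M, but H2-D1 alone was called. A call asked for an adjusted p under 0.1 together with a log2 difference of 0.5 or more in size. Over all tested probes 2.06% were called, and over named genes, each by its probe with the highest mean, 2.26% were called and 1.58% were called as higher. A mean above that of 3M was found for 52.9% of all genes. The changes of the 9 genes ran from 0.09 to 0.78 on the log2 scale with a median of 0.43, where the median of all genes was 0.01 and the middle 90% of genes lay between -0.34 and 0.41. Of the 9 genes, 4 had a change of at least 0.5, against 3.01% of all genes. An unadjusted p under 0.05 was reached by 4 as well, against 9.44% of all genes with such a p and a higher level. Without replicate 1 of 3M, 6 of the 9 genes were called, where 3.89% of all genes were called and 2.63% as higher, and the median change was 0.59.

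**Figure D1:**
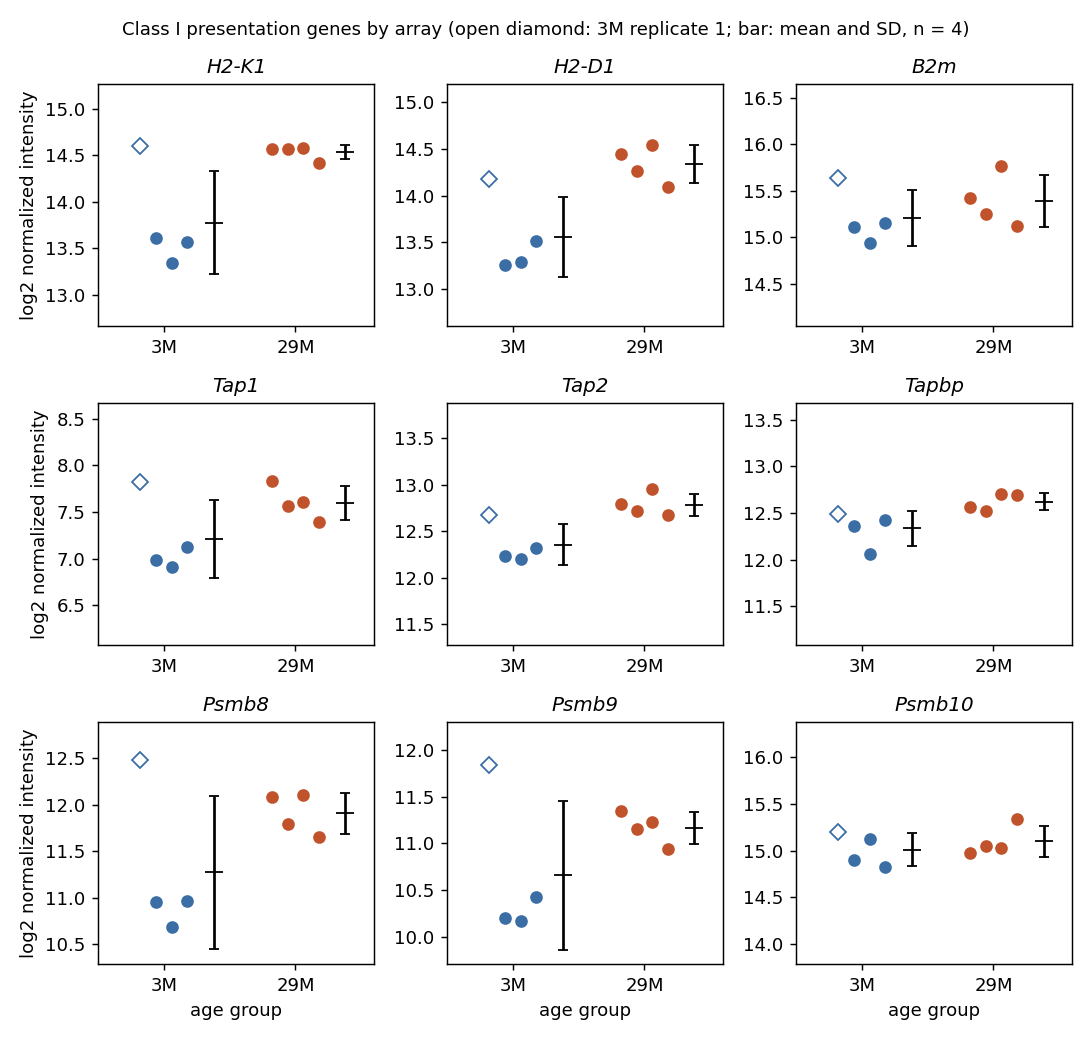
Normalized log2 intensity (vertical axes, each spanning the same number of log2 units) of the 9 genes in each array of 3M and 29M, with an open diamond for replicate 1 of 3M and bars for the mean and SD (n = 4). The open diamond is the highest 3M point in every panel, and only for Tap2 and Tapbp do all 29M points lie above all 3M points.

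H2-K1 encodes the heavy chain of the K molecule, 1 of the classical class I molecules of this mouse strain. On its 10-spot probe the normalized log2 intensity was 14.59, 13.61, 13.34 and 13.57 in replicates 1 to 4 of 3M and 14.57, 14.56, 14.58 and 14.42 in replicates 1 to 4 of 29M. The 29M arrays were closely grouped, and replicates 2 to 4 of 3M lay well below them, while replicate 1 of 3M was above all arrays of 29M. The group mean of 3M was 13.78 ± 0.56 (SD, n = 4). That of 29M was 14.53 ± 0.08 (SD, n = 4), higher by 0.75 (SE 0.23, 95% interval 0.23 to 1.28, limma adjusted p 0.154). The change was 1.03 without replicate 1 of 3M, or 2.04-fold (limma adjusted p 0.0023). The single-spot probe of H2-K1 ran in parallel, with 13.16 in replicate 1 of 3M, at most 12.21 in the other 3M arrays, and 13.22, 13.08, 13.21 and 12.79 in 29M. Replicate 1 of 3M was again on the level of 29M. The difference on this probe was 0.69 (limma adjusted p 0.183), and 1.93-fold without that replicate.

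H2-D1 encodes the heavy chain of the D molecule, the other classical class I molecule here. Its probe gave 14.17, 13.26, 13.29 and 13.51 in 3M and 14.45, 14.26, 14.55 and 14.09 in 29M. Of the 29M arrays, 3 lay above the highest 3M array and replicate 4 just below it. The log2 change was 0.78 (SE 0.20, 95% interval 0.33 to 1.23, limma adjusted p 0.0972), a 1.71-fold higher level in 29M. The call was lost with slide as a fixed block (0.71, limma adjusted p 0.16) and kept with slide as a random block (0.77, limma adjusted p 0.0928). It was also lost on leaving out any array other than replicate 1 of 3M. Without that replicate the change was 0.98 (limma adjusted p 0.00626). Copies of class I genes in the H2 complex are close in sequence, and a probe of 1 of them may read others. Probe sequences were not used here, so the values of H2-K1 and H2-D1 are uncertain in this respect.

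B2m encodes beta-2 microglobulin, the light chain that all class I molecules need to reach the surface. It measured 15.63, 15.11, 14.94 and 15.15 in 3M and 15.42, 15.26, 15.76 and 15.12 in 29M. The groups overlapped widely, with replicate 4 of 29M within the range of the lower 3M arrays. The difference of 0.18 (SE 0.18, 95% interval -0.21 to 0.58, limma adjusted p 0.647) was within the spread of the arrays, and it was 0.32 without replicate 1 of 3M, again without a call.

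Tap1 and Tap2 together form the peptide transporter. The Tap1 probe, with 10 spots, gave 7.82, 6.98, 6.91 and 7.12 in 3M and 7.84, 7.57, 7.60 and 7.39 in 29M. All 29M arrays were above replicates 2 to 4 of 3M, and replicate 1 of 3M was on a level with the highest of them. Tap1 was 0.39 higher in 29M (SE 0.19, limma adjusted p 0.346), and without replicate 1 of 3M it was 0.59 (limma adjusted p 0.0332), which is a call.

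For Tap2 the values were 12.67, 12.23, 12.21 and 12.31 in 3M and 12.79, 12.72, 12.95 and 12.68 in 29M. The groups did not overlap, though replicate 1 of 3M (12.67) came close to the lowest 29M array (12.68). Tap2 was 0.43 higher in 29M (SE 0.12, 95% interval 0.16 to 0.70), with a limma adjusted p of 0.121 and a change under the size asked for. It was 0.53 without replicate 1 of 3M, which is a call (limma adjusted p 0.0217).

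Tapbp encodes tapasin, which bridges the transporter and the class I molecule. Its arrays gave 12.49, 12.36, 12.07 and 12.43 in 3M and 12.57, 12.52, 12.70 and 12.70 in 29M. These groups did not overlap either, and the gap between them was small. The change was 0.29 (SE 0.11, limma adjusted p 0.218), and 0.34 without replicate 1 of 3M, which was not a call. Tap2 and Tapbp were the 2 of 9 genes with separate groups, against 6.34% of all genes whose 29M arrays were all above the 3M arrays. Set against replicates 2 to 4 of 3M, 7 of the 9 genes had all 29M arrays above them, against 12.2% of all genes, and B2m and Psmb10 did not.

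Psmb8, Psmb9 and Psmb10 encode the catalytic subunits that replace Psmb5, Psmb6 and Psmb7 when an immunoproteasome is assembled. Psmb8 measured 12.48, 10.95, 10.69 and 10.96 in 3M and 12.08, 11.79, 12.10 and 11.65 in 29M. Replicates 2 to 4 of 3M lay below every 29M array, and replicate 1 of 3M lay above every one of them. The log2 change was 0.63 (SE 0.34, 95% interval -0.14 to 1.41, limma adjusted p 0.391). Without replicate 1 of 3M it was 1.04, or 2.05-fold (limma adjusted p 0.00651).

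Psmb9 had the same layout, with 11.84, 10.20, 10.16 and 10.43 in 3M and 11.35, 11.15, 11.23 and 10.94 in 29M. Again replicate 1 of 3M was the highest of all 8 arrays and the other 3M arrays were the lowest. The change was 0.51 (SE 0.33, 95% interval -0.24 to 1.26, limma adjusted p 0.48), and 0.91 without that replicate (limma adjusted p 0.00673).

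Psmb10, the third of these subunits, is encoded outside the MHC. Its values were 15.20, 14.90, 15.12 and 14.82 in 3M and 14.98, 15.05, 15.03 and 15.34 in 29M. The groups lay over each other, and no array stood apart. The change of 0.09 (SE 0.12, 95% interval -0.17 to 0.35, limma adjusted p 0.748) was smaller than its error, and it was 0.15 without replicate 1 of 3M.

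Within slides the genes fell into those whose direction turned on slide 1 and those whose direction held. Slide 2 held replicate 2 of each group, and slide 3 held replicates 3 and 4 of 3M with replicate 1 of 29M. Every difference within a slide thus rests on a single array in at least 1 group. The slides also differed in their scan, so slide and scan cannot be told apart. H2-K1 was -0.10 on slide 1, 0.95 on slide 2 and 1.12 on slide 3, counting 29M minus 3M on the log2 scale. Psmb8 was -0.61, 0.84 and 1.25, and Psmb9 was -0.76, 0.95 and 1.06, on the same slides. Tap1 (-0.32), B2m (-0.19) and Psmb10 (-0.01) were also lower in 29M on slide 1, where replicate 1 was the sole 3M array. H2-D1 (0.14), Tap2 (0.14) and Tapbp (0.21) were higher in 29M on slide 1 as on the other slides. With slide as a fixed block all 9 changes stayed above 0, from 0.04 for Psmb10 to 0.71 for H2-D1, and no gene was called. With slide as a random block they ran from 0.08 for Psmb10 to 0.77 for H2-D1, and H2-D1 was called.

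**Figure D2:**
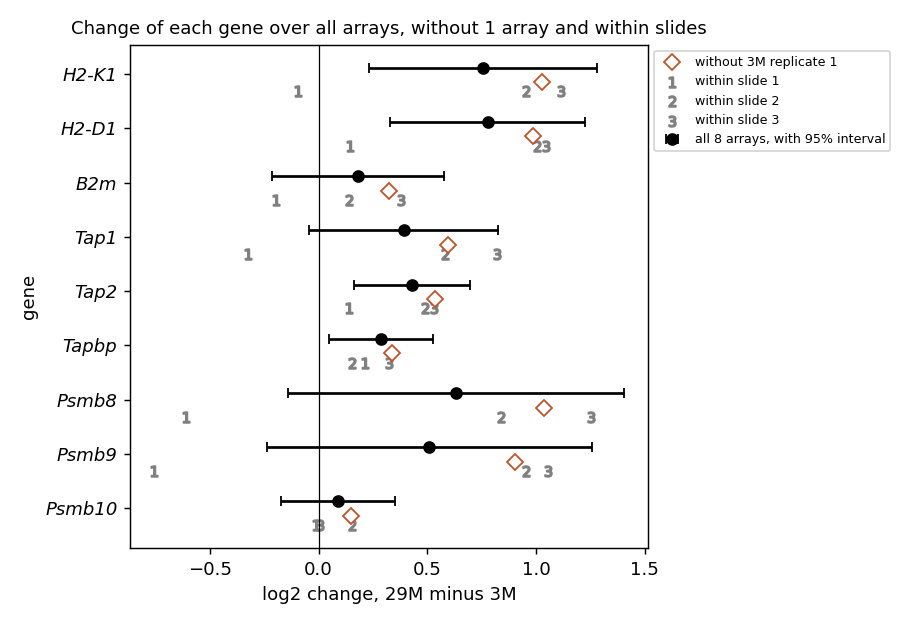
Log2 change (29M minus 3M, horizontal axis) of the 9 genes over all 8 arrays with its 95% interval (black), without replicate 1 of 3M (open diamonds) and within each of the 3 slides (grey digits). On slide 1, which holds replicate 1 of 3M, 6 of the genes fall below 0, while every gene is above 0 on slides 2 and 3.

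The genes varied together from array to array to different degrees. After the group means were taken out, the deviations of each gene over the 8 arrays were set against the mean of the other 8 genes. The correlation was 0.99 for Psmb8, 0.98 for Psmb9, 0.97 for H2-K1, 0.96 for H2-D1, 0.95 for Tap2 and 0.95 for Tap1. It was 0.84 for B2m, 0.55 for Tapbp and 0.20 for Psmb10. These are descriptions, since the arrays share slides and replicate 1 of 3M carries much of the spread. Without it, over 7 arrays, the correlation was 0.95 for Psmb8, 0.89 for H2-D1 and for Tap2, 0.86 for B2m and 0.81 for Psmb9, and it fell to 0.69 for Tap1, 0.68 for H2-K1 and 0.35 for Tapbp. For Psmb10 it turned to -0.89.

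Outside the class I pathway lists, 15838 genes with a probe well above background on all 8 arrays were searched for the 5 whose deviations were most like the mean of the 9 genes. These were Irgm2 (r = 0.996), Stx11 (0.991), Zfand3 (0.989), Trib3 (0.988) and Igtp (0.986), again over 8 arrays and as a description. Irgm2 and Igtp encode interferon-inducible GTPases. Irgm2 gave 12.62, 10.60, 10.34 and 10.77 in 3M and 11.31, 11.09, 11.34 and 10.93 in 29M. Replicate 1 of 3M was thus the highest of all arrays by a wide margin, and its distance from the mean of replicates 2 to 4 was 2.05 on the log2 scale for Irgm2 and 2.35 for Igtp. The same distance was 1.62 for Psmb8, 1.58 for Psmb9, 1.09 for the 10-spot probe of H2-K1 and 0.82 for H2-D1. Over all arrays the age difference was 0.08 for Irgm2 (limma adjusted p 0.946) and 0.09 for Igtp (limma adjusted p 0.948). When replicate 1 of 3M was left out, both were called, at 0.60 for Irgm2 (limma adjusted p 0.0565) and 0.68 for Igtp (limma adjusted p 0.0296). The other 3 were not called over all arrays, with 0.41 for Stx11, 0.12 for Zfand3 and 0.02 for Trib3 (limma adjusted p 0.272, 0.564 and 0.962). Without that replicate Stx11 was called at 0.60 (limma adjusted p 0.0153). Zfand3 and Trib3, both at 0.19, were still not called (limma adjusted p 0.208 and 0.237). With replicate 1 of 3M left out, r was between 0.87 for Trib3 and Igtp and 0.98 for Irgm2.

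The subunits that the immunoproteasome subunits replace were near 0 in their age difference. Psmb5 differed by -0.06 (limma adjusted p 0.796), Psmb6 by -0.01 (0.985) and Psmb7 by 0.01 (0.984). Psme1 and Psme2, which encode the chains of an interferon-inducible proteasome activator, were 0.16 (limma adjusted p 0.51) and 0.06 (0.824) higher. Leaving out replicate 1 of 3M gave -0.06 for Psmb5, 0.04 for Psmb6, -0.04 for Psmb7, 0.24 for Psme1 and 0.12 for Psme2, again with no call. In the list of 8 constitutive subunits and activators none was called by limma, the median change was 0.02, and it was 0.00 for the 11 genes of folding, loading and trimming partners, where limma also called none. These medians were 0.01 and -0.01 without replicate 1 of 3M, and limma again called none. Each replacement was then taken as a difference of log2 values within an array, relative to its mean in 3M, with 3 pairs that were chosen after the changes of the genes were known. Psmb8 minus Psmb5 stood at 1.21, -0.24, -0.55 and -0.42 in 3M and at 0.99, 0.71, 0.78 and 0.30 in 29M. Its mean was 0.69 higher in 29M (exact permutation test, two-sided, p 0.143, adjusted over the pairs 0.386, where 0.0286 is the smallest p that this design allows). Psmb9 minus Psmb6 was 0.52 higher (exact p 0.257, adjusted 0.386) and Psmb10 minus Psmb7 0.08 higher (exact p 0.829, adjusted 0.829). On leaving out replicate 1 of 3M these differences were 1.10, 0.87 and 0.19, and all 29M arrays then lay above all 3M arrays for the pairs of Psmb8 and Psmb9 but not for that of Psmb10.

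**Figure D3:**
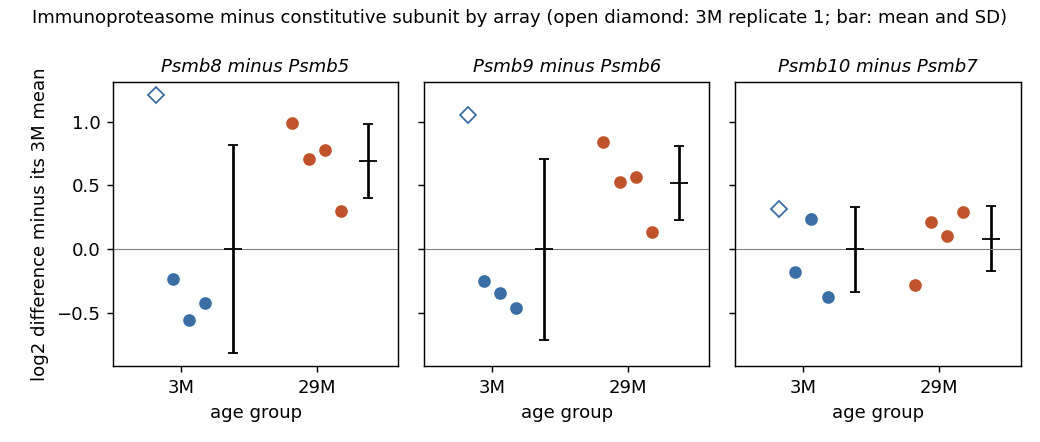
Log2 difference between each immunoproteasome subunit and the constitutive subunit it replaces, relative to the mean of 3M (vertical axis), in each array of 3M and 29M, with bars for the mean and SD (n = 4). Replicate 1 of 3M (open diamond, 1.21 for Psmb8 minus Psmb5) lies above all other arrays in the first 2 panels, and the groups overlap in the panel of Psmb10 minus Psmb7.

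Other class I genes, most of them of the H2 complex, were mostly higher in 29M by mean, and 1 was called in each direction. Of 19 listed genes 16 had a probe, and 13 of these had a higher mean in 29M, against 52.9% of all genes. Their median change was 0.61. Over all genes 2.26% were called. H2-M3, which presents formylated peptides, was called as higher. Its values were 10.02, 9.34, 9.37 and 9.36 in 3M and 10.29, 10.34, 10.31 and 10.15 in 29M, so that the groups were separate even with replicate 1 of 3M. The change was 0.75 (SE 0.15, limma adjusted p 0.05), and 0.91 without that replicate (limma adjusted p 0.00215). The probe assigned to H2-Q4 went the opposite way, with 18.27, 17.70, 17.44 and 17.91 in 3M and 16.95, 17.04, 17.12 and 16.95 in 29M. There every 3M array was above every 29M array, and the change was -0.82 (SE 0.16, limma adjusted p 0.0439). Another probe, the dimmer of 2 for H2-Q2, was called at 0.89 (limma adjusted p 0.0862), and at 1.13 without replicate 1 of 3M. Without replicate 1 of 3M, 9 of the 16 genes were called as higher, against 2.63% of all genes, and the median was 0.85. H2-Q4 was still called as lower (-0.67, limma adjusted p 0.0238). These genes have close copies and their probes may read one another.

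**Figure D4:**
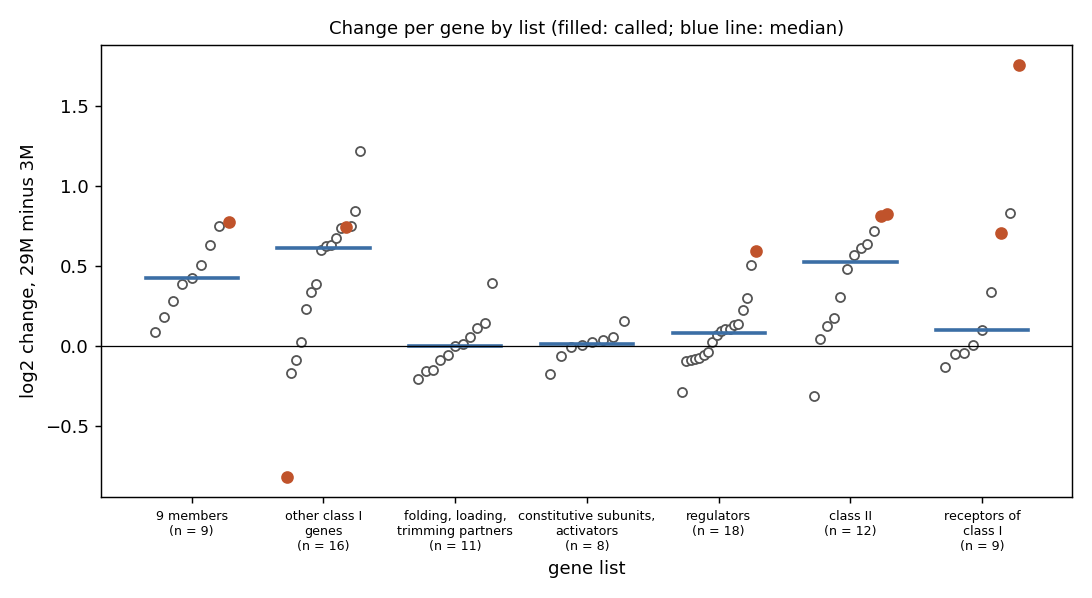
Log2 change (29M minus 3M, vertical axis) of each gene, by its probe with the highest mean, in the 9 genes and 6 lists of related genes, with called genes filled and a line at the median of each list. The medians are 0.43 for the 9 genes and 0.61 for the other class I genes, and 0.00 and 0.02 for folding partners and constitutive subunits.

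For 18 listed regulators of class I genes the median change was 0.08, and 1 was called as higher, against 1.58% of all genes. Without replicate 1 of 3M the median was 0.08, with 2 called as higher, against 2.63%. The one called over all arrays was Irf8, a transcription factor of microglia and other myeloid cells. It measured 11.35, 10.89, 10.79 and 10.97 in 3M and 11.48, 11.70, 11.73 and 11.46 in 29M, with separate groups and a change of 0.60 (SE 0.13, limma adjusted p 0.0637). It was 0.71 without replicate 1 of 3M (limma adjusted p 0.00996). Nlrc5, a transactivator of class I genes, gave 9.08, 7.64, 7.28 and 7.87 in 3M and 8.64, 8.48, 8.43 and 8.37 in 29M. Its layout was that of Psmb8, with replicate 1 of 3M on top and the other 3M arrays below all of 29M. The change was 0.51 (limma adjusted p 0.466), and 0.88 without replicate 1 of 3M (limma adjusted p 0.0148). The dimmer probe of Nlrc5 differed by -0.10, and by -0.06 without that replicate. Irf1, an interferon-induced activator of class I genes, was 0.23 higher (limma adjusted p 0.546), and 0.41 higher without replicate 1 of 3M (limma adjusted p 0.0617), where all 29M arrays lay above the 3M arrays but the size of a call was not reached.

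Some markers of immune cells were higher in 29M as well, and their part in the differences of the class I genes was not tested. For each list the mean deviation of its genes from their averages over the 8 arrays was taken per array. For the 9 genes it was 0.39, -0.42, -0.52 and -0.34 in 3M and 0.29, 0.16, 0.34 and 0.10 in 29M. For 19 microglia markers it was -0.01, -0.21, -0.31 and -0.18 in 3M and 0.25, 0.23, 0.26 and -0.03 in 29M. The order of replicates 2 to 4 of 3M was the same in both, but replicate 1 of 3M was not on the level of the higher 29M arrays in microglia markers as it was in the class I genes. In the mean of the T and B cell markers it was on their level, with 0.12, -0.15, -0.22 and -0.17 in 3M and 0.07, 0.16, 0.17 and 0.02 in 29M. This did not hold gene by gene. In that replicate Cd3d (6.42, against 6.88 to 7.46 in 29M) and Cd8a (6.26, against 6.79 to 7.05) lay below all 29M arrays. Cd2 (6.94, against 6.84 to 7.48) lay within their range, and Cd79b (9.14, against 7.29 to 8.01) lay above it. Class II genes also had replicate 1 of 3M high, with 0.21, -0.28, -0.56 and -0.21 in 3M and 0.24, 0.28, 0.47 and -0.15 in 29M. Of the 19 microglia markers 5 were called as higher (Trem2, Tyrobp, Ctss, C1qa and C1qb), against 1.58% of all genes. Without replicate 1 of 3M 7 were called as higher, against 2.63%. The median over the list was 0.34, and 0.42 without that replicate. The mean log2 level of the list ranged from 12.80 to 13.09 in 3M and from 13.03 to 13.37 in 29M. For 15 markers of T and B cells the mean level ranged from 8.11 to 8.44 in 3M and from 8.35 to 8.50 in 29M. The median change was 0.07, and 3 were called as higher (Cd3d, Cd8a and Cd2), against 1.58% of all genes. These became 0.13 and 4 without replicate 1 of 3M, against 2.63% of all genes called as higher. The defining markers Cd3g and Ms4a1 were not well above background on any 3M array. Neuron markers, which check the tissue, had mean levels from 15.56 to 15.77 in 3M and from 15.60 to 15.68 in 29M. Of the 12, limma called none, with or without replicate 1 of 3M. Their median change was 0.01, and -0.04 without that replicate.

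**Figure D5:**
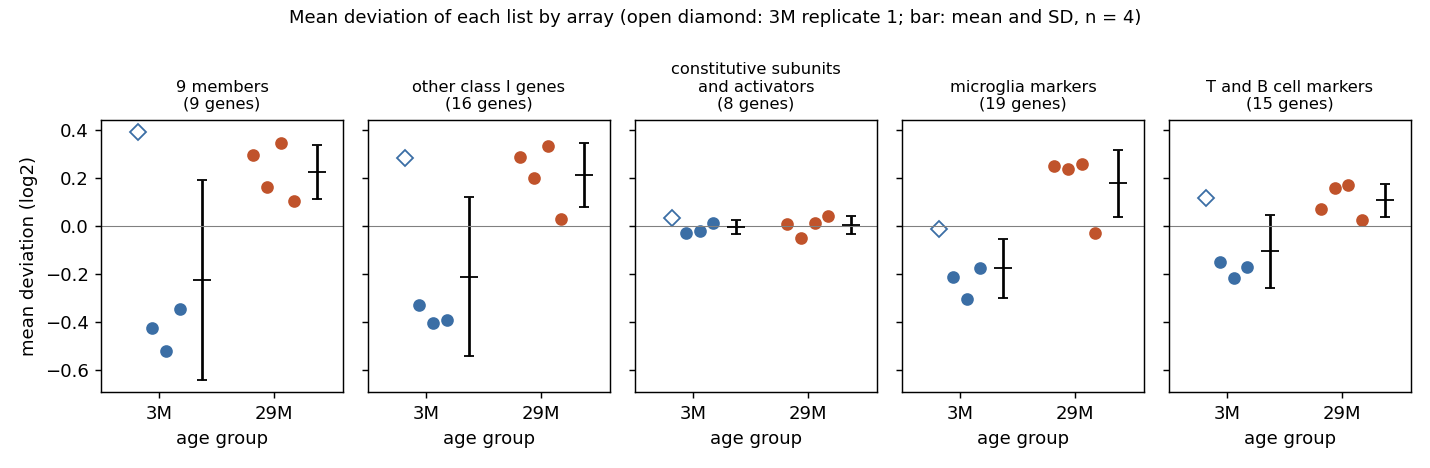
Mean deviation (log2, vertical axis) per array of the 9 genes, other class I genes, constitutive subunits with activators, microglia markers and T and B cell markers, with an open diamond for replicate 1 of 3M and bars for the mean and SD (n = 4). Replicate 1 of 3M stands at 0.39 for the 9 genes, above every 29M array, and at -0.01 for microglia markers.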

How the data were processed

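For each of the 8 arrays the authors deposited scanner output as linear intensities, not normalized between arrays, made per the file headers with Agilent Feature Extraction 10.7.3.1. A further deposited table, of intensities for all samples, was not used because its columns equal mean local backgrounds (7 of 8 those of another array than the column names). Control spots and outlier spots (127 to 190 per array) were left out, and the median spot intensities were put through variance stabilising normalization (own implementation in R 4.3.3, trimming quantile 0.9, 7 iterations), which yields generalized log2 values and understates changes of dim probes. Spots of a probe were averaged, and a linear model with age as its term was fitted with limma 3.58.1 (eBayes) to each of 39408 probes with at least 3 usable arrays per group. P-values were adjusted by Benjamini-Hochberg over all probes. The thresholds followed the study's methods. Where a gene had several probes, the one with the highest mean counted.

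Accessions in the files were matched to RefSeq genes of GRCm38.p6, which named 26055 of 39429 probes (66.1%). The arrays were designed on another build, so no coordinates of probes are given, and those of the promoter stretches refer to GRCm38.p6. Groups and replicate numbers came from the titles. Members, lists and marker sets were chosen with earlier results of these data known. Named genes were all members, called genes of the lists, 8 preset regulators and proteasome genes, and the 5 most alike genes. Pirb, Cd8b1 and a few markers were named in addition. One preset gene is not reported here. The fit was tested on simulated data. Alternatives were other normalizations, filters, blocks, weights and each array left out. Figures were drawn with matplotlib in Python.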

Additional observations from a re-analysis of the deposited data

Results flagged for a closer look

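In 22 sets of 4 values (each of the 10 probes and the mean deviation of the 9 genes, in each group), 3 had an array whose gap to its nearest neighbour was nearly as wide as the whole set. Chance alone would give about 1.1 of them (1 in 20). For Psmb8 the array far out was replicate 1 of 3M (gap 0.849 of the range), at 12.48 against 10.69 to 10.96 in the other 3M arrays. The same replicate was far out for Psmb9 (gap 0.844), at 11.84 against 10.16 to 10.43. On the 10-spot probe of H2-K1 replicate 4 of 29M was far out (gap 0.897), at 14.42 against 14.56 to 14.58, a distance that is small beside the age difference and stands out because the other 29M arrays lay so close together. The cause of these gaps was not tested.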

How the results depend on the processing

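The direction held for each of the 9 genes in all 18 alternative fits, and their median log2 change ran from 0.35 (without replicate 3 of 3M) to 0.59 (without replicate 1 of 3M). The number of called genes depended on the setting. No member gene or probe (0 of each) was called with processed signals on the log2 scale less the 75th percentile of the array, with processed signals as input of the variance stabilising model, with slide as a fixed block, or at an adjusted p under 0.05 in place of 0.1, where 487 probes in all were called. Array weights gave 5 member genes, 6 member probes and 1436 probes in all. Leaving out 1 array gave from 0 to 6 member genes, from 0 to 7 member probes and from 401 to 1464 probes in all, with each upper count reached without replicate 1 of 3M and 0 member genes without any other array. With the replicate number as a block 0 member genes, 0 member probes and 411 probes in all were called, and H2-D1 had a change of 0.78 at a limma adjusted p of 0.146. The labels give no reason to pair samples by number, and the deviations of samples with the same number correlated at -0.24, 0.21, -0.23 and 0.07 across probes, so the numbers were not taken as pairs. H2-D1 was called in 7 of 18 fits (adjusted p from 0.00626 to 0.235), H2-K1, Tap1, Psmb8 and Psmb9 in 2 each, Tap2 in 1, and B2m, Tapbp and Psmb10 in none. The cause of these shifts was not tested.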

Other observations

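Receptor genes and class II genes were listed too. The 9 genes listed as receptors of class I molecules were not checked for binding them, Lilrb4a included. Of these 6 had a higher mean in 29M, against 52.9% of all genes, with a median change of 0.10. Over all arrays 2 were called as higher, against 1.58% of all genes. Without replicate 1 of 3M the median was 0.26, with 3 called as higher, against 2.63%. Lilrb4a, an inhibitory receptor of myeloid cells, rose by 1.76 (SE 0.18, limma adjusted p 0.00367), from 8.99, 8.17, 8.39 and 8.08 in 3M to 10.11, 10.35, 10.16 and 10.05 in 29M. Its other probe rose by 1.36. Without replicate 1 of 3M these rises were 1.95 and 1.51. These groups were far apart, and replicate 1 of 3M, although the highest of its group, stayed with 3M. Pirb, also in the list, was 0.83 higher (limma adjusted p 0.339), with replicate 1 of 3M (9.86) above every 29M array. Without that replicate Pirb was 1.31 higher (limma adjusted p 0.00532). Cd8a, a co-receptor of cytotoxic T cells, rose by 0.71 (SE 0.09, limma adjusted p 0.00731), from between 6.09 and 6.31 in 3M to between 6.79 and 7.05 in 29M, on a dim probe that 3 of 4 arrays of 3M and all of 29M measured well above background. The rise was 0.73 without replicate 1 of 3M. Its other probe differed by -0.17 (-0.35 without that replicate) and was not well above background on any 29M array. Cd8b1, also in the list and well above background on all arrays, did not rise. It differed by -0.04 (limma adjusted p 0.913), and by -0.08 without replicate 1 of 3M.

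Of 12 genes of class II molecules and their loading, 11 had a higher mean in 29M, against 52.9% of all genes. The median was 0.53, and 2 were called, against 2.26% of all genes. These were H2-Oa, which encodes a chain of a regulator of class II loading (0.82, SE 0.15, limma adjusted p 0.0364), and Ctss, the protease cathepsin S (0.83, SE 0.12, limma adjusted p 0.0136). Both had separate groups with all 8 arrays. Without replicate 1 of 3M, 5 of the 12 were called as higher, against 2.63% of all genes. The median was then 0.72, and the changes were 0.81 for H2-Oa and 0.89 for Ctss.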
